A study of Mus musculus with 12 samples.

Results

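The genes described here are the matrix metalloproteinases (MMPs), the ADAMTS proteases and the tissue inhibitors of metalloproteinases (TIMPs) of the mouse lung. They were chosen by name: every gene whose symbol in the array's annotation is Mmp, Timp or Adamts followed by a number, with ADAMTS-like genes not included. The rule found 44 of 22180 genes, of which 22 are Mmp, 18 Adamts and 4 Timp genes, and all 44 entered the tests without a filter on low values. The study measured RNA of whole lung on one-colour Affymetrix arrays, 1 array per mouse, in female mice aged 10 weeks. There were 4 groups of 3 mice: wild type and Zmpste24-/- mice, each either intact (baseline) or ventilated. Ventilated mice received positive pressure of 15 cmH2O with zero end-expiratory pressure for 2.5 hours, at 100 breaths/min with an equal inspiratory and expiratory time and oxygen at a fraction of 0.21. How the Zmpste24 allele was made, and whether intact mice were anaesthetised, is not stated in the labels used.

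MMPs are zinc endopeptidases that cut collagens, elastin, proteoglycans and many signalling proteins, and most are made as inactive precursors. ADAMTS proteases are secreted zinc enzymes that bind matrix through thrombospondin repeats. Some of them cut versican and aggrecan, some trim procollagen, and others act on fibrillin microfibrils or von Willebrand factor. TIMPs bind the active site of these enzymes and block it. In the lung, these genes take part in alveolar development, in the passage of leukocytes and in repair after injury. Zmpste24 is itself a zinc metalloprotease, but it sits in the membranes of the nucleus and endoplasmic reticulum, where it processes the precursor of lamin A.

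Each array value is a log2 expression value deposited by the authors, and array medians lay between 5.35 and 5.42. The labels held up in the targeted gene: Zmpste24 was between 8.50 and 9.28 in the 6 wild type arrays and between 5.01 and 5.91 in the 6 Zmpste24-/- arrays. Lung markers were high in every array, with Sftpc, the surfactant protein C gene of alveolar type 2 cells, between 13.02 and 13.25. Liver RNA was uneven across the arrays. Alb (albumin) read 8.12, 11.52 and 9.18 in intact and 9.18, 8.32 and 7.04 in ventilated wild type mice. It lay between 6.04 and 6.40 in the 6 Zmpste24-/- arrays. Wild type baseline array 2 held the most, but for Alb every wild type array lay above every Zmpste24-/- array. Leaving out 1 array therefore does not remove the difference in Alb. Not every liver marker was so ordered: Apoa1 read 5.13 in wild type ventilated array 3, below the 5.41 to 5.63 of the Zmpste24-/- arrays. Liver markers were therefore followed too, and calls that changed without wild type baseline array 2 are named. Arrays are numbered by the replicate number in the labels, and the 3 values of a group are given in that order. Where the Zmpste24 probe lies relative to the deleted part is not stated in the labels used. Changes below are log2 fold changes ± standard error from limma, with p-values adjusted by Benjamini-Hochberg over all 22180 genes, and a gene "passed" at an adjusted p under 0.05. The files name no detection limit, and changes of genes near the low end of the arrays are uncertain in size. The mean of 6 of the 44 genes lay under the 25th percentile of all genes.

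Ventilation changed a minority of the family, and it did so in both directions. In wild type lungs 4 of the 44 genes rose (9.09%, against 3.67% of all genes) and 4 fell (9.09%, against 3.53%). Those that rose were Mmp8, Mmp19, Timp1 and Adamts4, and those that fell were Mmp11, Adamts5, Adamts10 and Adamts17. In Zmpste24-/- lungs 8 of 44 rose (18.2%, against 8.89% of all genes) and 4 fell (9.09%, against 7.52%). The 4 genes that rose in wild type lungs also rose there, joined by Mmp9, Mmp14, Adamts1 and Adamts9. Mmp11, Adamts5 and Adamts10 fell in both genotypes, and Mmp2 fell in Zmpste24-/- lungs. No gene passed in opposite directions in the 2 genotypes. The median change of the 44 genes was 0.02 in both genotypes, and that of all genes was -0.01 in both. Groups that did not overlap in any array were seen in 15 of 44 genes in wild type lungs (34.1%, against 22.6% of all genes) and in 18 of 44 in Zmpste24-/- lungs (40.9%, against 33.4%). Without wild type baseline array 2, 6 of the 44 genes passed in wild type lungs, 2 higher and 4 lower.

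In intact lungs, most of the genes that differed between genotypes were lower in Zmpste24-/- mice. At baseline 8 of 44 genes were lower in Zmpste24-/- lungs (18.2%, against 4.11% of all genes), namely Mmp2, Mmp14, Adamts1, Adamts6, Adamts9, Adamts10, Adamts12 and Adamts17. Timp3 alone was higher (2.27%, against 2.20%). Under ventilation 3 of 44 were lower (6.82%, against 6.08% of all genes), Mmp2, Adamts6 and Adamts10, and 4 were higher (9.09%, against 4.72%), Mmp8, Mmp19, Adamts4 and Adamts5. The groups did not overlap in 12 of 44 genes at baseline (27.3%, against 23.9%) and in 15 of 44 under ventilation (34.1%, against 30.3%). The test of the difference itself, the change after ventilation in Zmpste24-/- minus that in wild type lungs, passed for 1 of 44 genes, Mmp19 (2.27%, against 0.266% of all genes for differences in this direction). With Mmp19, 9 of the 44 had an unadjusted p under 0.05 in that test (20.5%, against 11.7% of all genes). Without wild type baseline array 2 the baseline count was 6 in place of 9, and Mmp19 no longer passed the test of the difference. In all, 16 of the 44 genes passed at least 1 of the 5 tests (36.4%, against 25.7% of all genes) and 28 passed none. The comparisons share arrays, so their calls are not independent of each other.

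**Figure D1:**
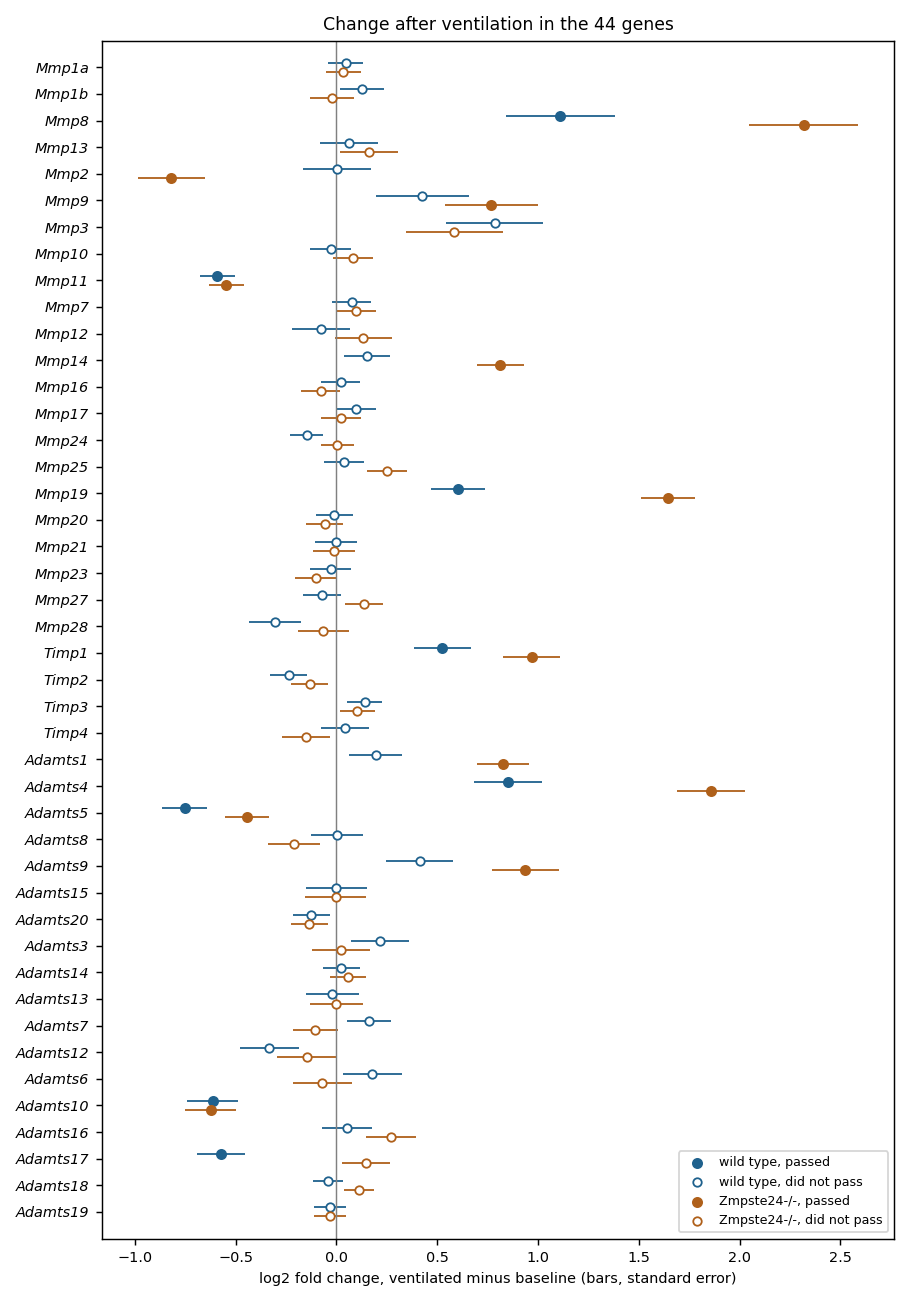
The 44 genes are listed by role, with the log2 fold change after ventilation on the x axis for wild type (blue) and Zmpste24-/- (orange) lungs, bars showing the standard error and filled points the changes that passed. Mmp8, Mmp19 and Adamts4 lie farthest to the right, at 2.32, 1.65 and 1.86 in Zmpste24-/- lungs, and most open points lie near 0.

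Among the collagenases, which cleave the triple helix of fibrillar collagen, Mmp8 was the gene that changed. Mmp8 encodes the collagenase stored in neutrophil granules. Mmp8 read 6.76, 5.91 and 5.40 in intact and 7.38, 7.0 and 7.02 in ventilated wild type mice, and 6.41, 6.66 and 5.89 in intact and 8.70, 8.80 and 8.42 in ventilated Zmpste24-/- mice. All ventilated arrays lay above all baseline arrays of the same genotype, and all Zmpste24-/- ventilated arrays lay above all wild type ventilated arrays. Mmp8 rose by 1.11 ± 0.27, adjusted p = 0.0255, in wild type and by 2.32 ± 0.27, adjusted p = 7.72e-05, in Zmpste24-/- lungs, a 4.98-fold increase in the latter. After ventilation it was higher in Zmpste24-/- than in wild type lungs (1.51 ± 0.27, adjusted p = 0.00347), while the baseline groups overlapped (0.30 ± 0.27, adjusted p = 0.594). The difference between both ventilation changes, 1.21 ± 0.38, adjusted p = 0.21, did not pass. The wild type call was lost with the 2 compared groups fitted alone (adjusted p = 0.0652), when wild type baseline array 2 or 3 was left out (adjusted p = 0.0788 and 0.0889) and when wild type ventilated array 1 or 3 was left out (adjusted p = 0.0845 and 0.066). The other collagenases, Mmp13, Mmp1a and Mmp1b, passed no test, with changes after ventilation between -0.02 and 0.16. Mmp1a and Mmp1b lay between 3.07 and 3.54 in every array. These paralogs are closely related, and separate values for them are uncertain.

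Mmp9, the gelatinase also carried in neutrophil granules, rose in Zmpste24-/- lungs. Mmp9 read 7.23, 7.0 and 6.90 in intact and 8.06, 7.18 and 7.17 in ventilated wild type mice, and 7.49, 7.49 and 6.71 in intact and 7.96, 7.96 and 8.08 in ventilated Zmpste24-/- mice. The Zmpste24-/- ventilated arrays lay above all 3 Zmpste24-/- baseline arrays, whereas wild type ventilated array 1 was as high as they were and the other wild type ventilated arrays overlapped with baseline. The increase in Zmpste24-/- lungs passed (0.77 ± 0.23, adjusted p = 0.0357), a call lost when Zmpste24-/- baseline array 3 was left out (adjusted p = 0.159) and when Zmpste24-/- ventilated array 1, 2 or 3 was left out (adjusted p = 0.0721, 0.0815 and 0.112). Its changes in wild type lungs (0.43 ± 0.23, adjusted p = 0.331) and its genotype difference under ventilation (0.53 ± 0.23, adjusted p = 0.172) did not pass, though the latter passed without wild type ventilated array 1 (0.82, adjusted p = 0.0163). Mmp25, the membrane-type MMP known from leukocytes, lay between 5.30 and 5.79 and passed no test.

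Several neutrophil markers also rose after ventilation. Of 12 neutrophil markers, 4 rose in wild type (33.3%, against 3.67% of all genes) and 7 in Zmpste24-/- lungs (58.3%, against 8.89%) after ventilation. Under ventilation 6 were higher (50.0%, against 4.72%) and 1 (Ltf) lower (8.33%, against 6.08%) in Zmpste24-/- lungs. At baseline S100a8 was higher in Zmpste24-/- lungs (1.27 ± 0.26, adjusted p = 0.011), while the baseline differences of Mmp8 (0.30 ± 0.27) and Mmp9 (0.19 ± 0.23) did not pass. The log2 of their summed level was 10.47, 10.10 and 10.0 in intact and 11.48, 10.85 and 10.76 in ventilated wild type mice, and 10.95, 10.98 and 10.17 in intact and 11.98, 12.08 and 11.92 in ventilated Zmpste24-/- mice. Wild type ventilated array 1, the array with the highest Mmp9 of its group, also had the highest summed level of its group, and Zmpste24-/- baseline array 3 was the lowest of its group in both. S100a8 and S100a9, the calgranulins of mature neutrophils, spanned 6.59 to 9.65 and 6.62 to 9.17. The granule genes Camp, Ngp and Mpo, which are transcribed in neutrophil precursors, lay between 3.86 and 5.27 in every array and did not pass. Ly6g, another of the 12 markers, lay between 3.99 and 5.09 and did not pass either. Ltf, the marker that was lower in Zmpste24-/- lungs under ventilation, spanned 5.36 to 9.11. In RNA of whole lung, more cells of a type and more RNA per cell cannot be told apart, and the part of the markers in the changes of Mmp8 and Mmp9 was not tested.

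**Figure D2:**
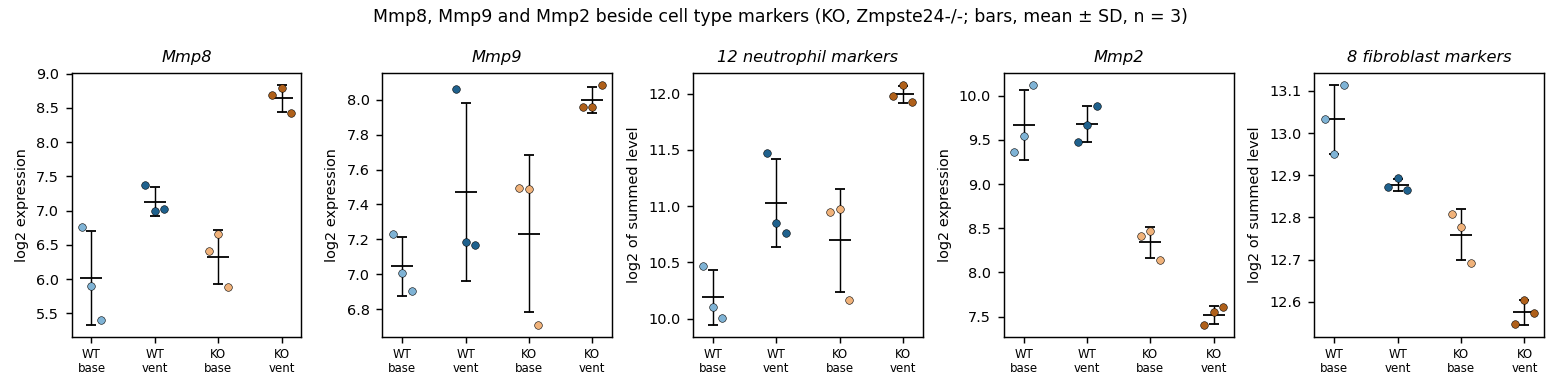
Log2 expression of Mmp8, Mmp9 and Mmp2, and the log2 of the summed level of 12 neutrophil and 8 fibroblast markers, are plotted for each of the 3 arrays per group (points) with mean ± SD (bars). The Zmpste24-/- ventilated arrays are the highest group for Mmp8 (8.42 to 8.80) and for the neutrophil markers (11.92 to 12.08), and the lowest for Mmp2 (7.41 to 7.61) and the fibroblast markers (12.55 to 12.61).

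Mmp2, the gelatinase made mainly by mesenchymal cells, had the largest genotype difference of the 44 genes. Mmp2 read 9.36, 9.54 and 10.12 in intact and 9.48, 9.67 and 9.88 in ventilated wild type mice, and 8.41, 8.47 and 8.15 in intact and 7.41, 7.55 and 7.61 in ventilated Zmpste24-/- mice. Every Zmpste24-/- array lay below every wild type array, and the Zmpste24-/- ventilated arrays lay below the Zmpste24-/- baseline arrays. The genotype difference in Mmp2 was -1.33 ± 0.17, adjusted p = 0.00083, at baseline (2.51-fold lower in Zmpste24-/- lungs) and -2.15 ± 0.17, adjusted p = 2.36e-05, under ventilation (4.44-fold lower). Ventilation lowered it in Zmpste24-/- lungs (-0.82 ± 0.17, adjusted p = 0.00411), and in wild type lungs its change was 0.00 ± 0.17. The difference between both changes was -0.82 ± 0.24, adjusted p = 0.166, which did not pass. The calls of Mmp2 held in all 18 alternative fits.

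Collagen genes of fibroblasts were also lower in Zmpste24-/- lungs. Of 8 fibroblast markers, 4 were lower in Zmpste24-/- lungs at baseline (50.0%, against 4.11% of all genes). Under ventilation 4 were lower (50.0%, against 6.08%) and 1 (Tcf21) higher (12.5%, against 4.72%). After ventilation 3 collagen genes fell in Zmpste24-/- lungs (37.5%, against 7.52%) and Tcf21 fell in wild type lungs (12.5%, against 3.53%). Col1a1, the main chain of type I collagen, differed by -1.17 ± 0.13, adjusted p = 0.000413, at baseline and by -1.72 ± 0.13, adjusted p = 2.36e-05, under ventilation, and it fell by 0.61 ± 0.13 after ventilation of Zmpste24-/- lungs. By contrast, Pdgfra, the platelet-derived growth factor receptor of lung fibroblasts, lay between 10.85 and 11.19 in all 12 arrays and passed none of the 5 tests. Dcn (decorin) lay between 9.96 and 10.88 and also passed none. The log2 of the summed level of the 8 markers was 12.95 to 13.11 in intact and 12.87 to 12.89 in ventilated wild type mice, and 12.69 to 12.81 in intact and 12.55 to 12.61 in ventilated Zmpste24-/- mice. The part of fibroblast content in the change of Mmp2 was not tested.

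Of the stromelysins, among which Mmp3 and Mmp10 cut proteoglycans and fibronectin and activate other MMPs, 1 gene passed, Mmp11. Mmp11, the stromelysin cut to its active form inside the cell by furin, fell in both genotypes. Mmp11 read 8.02, 7.83 and 7.96 in intact and 7.35, 7.37 and 7.32 in ventilated wild type mice, and 7.76, 8.03 and 7.88 in intact and 7.39, 7.26 and 7.39 in ventilated Zmpste24-/- mice. The 6 ventilated arrays lay between 7.26 and 7.39, below all 6 baseline arrays. The change was -0.59 ± 0.09, adjusted p = 0.00132, in wild type and -0.55 ± 0.09, adjusted p = 0.000816, in Zmpste24-/- lungs, and the genotypes did not differ beyond their spread (-0.05 ± 0.09 at baseline and 0.00 ± 0.09 under ventilation). A second Mmp11 probe with lower values changed by -0.12 ± 0.12 in wild type (adjusted p = 0.656) and by -0.28 ± 0.12 in Zmpste24-/- lungs (adjusted p = 0.137), so the call rests on 1 of 2 probes. Mmp3, the classical stromelysin, read 6.78, 6.14 and 6.62 in intact and 6.79, 7.59 and 7.52 in ventilated wild type mice, and 6.72, 6.44 and 5.79 in intact and 6.85, 6.89 and 6.96 in ventilated Zmpste24-/- mice. No ventilated array overlapped with the baseline arrays of its genotype, but the spread was wide and the changes did not pass (0.78 ± 0.24, adjusted p = 0.0685, in wild type and 0.59 ± 0.24, adjusted p = 0.126, in Zmpste24-/- lungs). Mmp10 lay between 4.33 and 4.83 and passed no test.

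Mmp8, Mmp3, Mmp10 and Mmp13 belong to a run of 10 Mmp genes that follow each other on chromosome 9 without another protein-coding gene between them, in the order Mmp13, Mmp12, Mmp1b, Mmp3, Mmp1a, Mmp10, Mmp8, Mmp27, Mmp20 and Mmp7. Mmp8 was the member of this run that passed a test. The matrilysin Mmp7 and the macrophage elastase Mmp12, also in the run, changed by between -0.08 and 0.13 after ventilation. Mmp27 and the enamel protease Mmp20 stayed between 4.13 and 5.06.

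**Figure D3:**
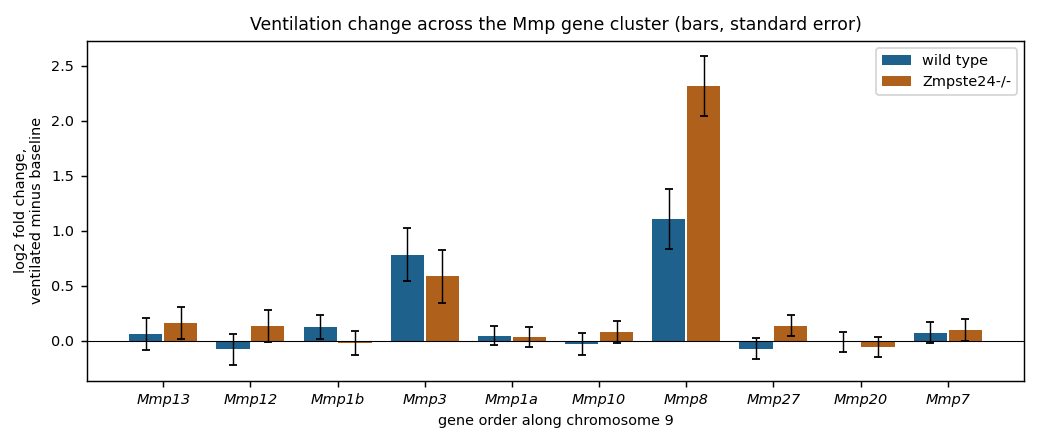
Bars give the log2 fold change after ventilation, with its standard error, for the 10 Mmp genes in their order along chromosome 9, in wild type (blue) and Zmpste24-/- (orange) lungs. Mmp8 rises by 1.11 and 2.32, Mmp3 by 0.78 and 0.59 without passing, and the other 8 genes stay between -0.08 and 0.16.

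Promoters of this run are shown because most of them share a motif close to the start. The letters TGANTCA, with any base at N, were searched in the 250 bases before the annotated start, in RefSeq windows on GRCm38.p6. They are a loose form of TGA(C/G)TCA, the core to which AP-1 (Fos and Jun) binds, and the pattern reads the same on both strands. Of the 44 genes, 30 had a window there. The letters stood in 8 of the 30 (26.7%), against 7.82% of 27025 genes with a window and 6.75% of all windows of this length. All 8 are in the chromosome 9 run: Mmp1a, Mmp1b, Mmp3, Mmp7, Mmp10, Mmp12, Mmp13 and Mmp20, between -95 and -35 counted from the first base of the motif to the start. In Mmp7 and Mmp12, which have more than 1 window, the letters stood in 1 of them. The match in Mmp20 reads TGAATCA, outside the stricter core TGA(C/G)TCA, and the shares of all genes and windows count such matches too. The genes of the run are related in sequence, so the 8 matches are not independent. None of these 8 genes passed a ventilation test, and the letters were in none of the windows of the 5 genes with one that rose in Zmpste24-/- lungs (Mmp8, Mmp14, Timp1, Adamts1 and Adamts9). Mmp9, Mmp19 and Adamts4, which also rose there, had no window and could not be searched. The letters stood in 8 of the 24 genes with a window that did not pass there (33.3%), so most of those lacked them too. Such a match is no evidence of binding, and the lack of one says only that these letters are not in the window. AGGAAG, the core of the PEA3 site for ETS factors, searched on both strands, stood in 13 of the 30 genes (43.3%) and in 32.3% of all genes with a window. The last 120 bases before the start are given below 5′ to 3′ in the direction of the gene, with TGANTCA matches in capitals, for 4 genes of the run with the motif and for Mmp8, Timp1 and Mmp14 without it.

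Mmp13 (chr9:7272394-7272513, + strand): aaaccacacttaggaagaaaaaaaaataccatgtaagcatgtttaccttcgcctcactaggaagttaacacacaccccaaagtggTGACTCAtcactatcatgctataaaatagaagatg
Mmp3 (chr9:7445702-7445821, + strand): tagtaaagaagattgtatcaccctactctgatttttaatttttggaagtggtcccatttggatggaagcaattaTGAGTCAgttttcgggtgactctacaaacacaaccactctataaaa
Mmp1a (chr9:7464021-7464140, + strand): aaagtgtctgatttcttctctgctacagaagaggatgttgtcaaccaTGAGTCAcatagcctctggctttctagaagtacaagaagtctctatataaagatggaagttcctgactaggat
Mmp10 (chr9:7502222-7502341, + strand): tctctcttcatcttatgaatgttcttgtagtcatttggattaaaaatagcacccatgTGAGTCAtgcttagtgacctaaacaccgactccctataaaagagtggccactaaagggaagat
Mmp8 (chr9:7558309-7558428, + strand): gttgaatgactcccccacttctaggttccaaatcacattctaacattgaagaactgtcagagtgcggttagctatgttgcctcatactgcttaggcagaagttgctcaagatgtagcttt
Timp1 (chrX:20870046-20870165, + strand): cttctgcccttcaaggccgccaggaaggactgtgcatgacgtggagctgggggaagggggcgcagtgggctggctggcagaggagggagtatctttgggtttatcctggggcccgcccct
Mmp14 (chr14:54431478-54431597, + strand): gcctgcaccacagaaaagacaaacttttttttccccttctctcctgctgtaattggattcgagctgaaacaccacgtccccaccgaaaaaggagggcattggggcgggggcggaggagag

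In Mmp13, Mmp3, Mmp1a and Mmp10 the capitals start at -35, -46, -73 and -63, and these genes changed by at most 0.78 after ventilation. The 2 genes of the run without the letters differed: Mmp8 rose by 1.11 and 2.32 in wild type and Zmpste24-/- lungs, and Mmp27 changed by -0.07 and 0.14 without passing.

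Membrane-type MMPs act at the cell surface. Mmp14, the membrane-type enzyme that activates pro-MMP2 together with Timp2, was low in intact Zmpste24-/- lungs and overlapped with wild type lungs after ventilation. Mmp14 read 9.37, 9.47 and 9.67 in intact and 9.54, 9.73 and 9.70 in ventilated wild type mice, and 8.73, 8.98 and 8.66 in intact and 9.46, 9.80 and 9.55 in ventilated Zmpste24-/- mice. The 3 Zmpste24-/- baseline arrays lay below the other 9. The genotype difference at baseline was -0.72 ± 0.12, adjusted p = 0.00309, and Mmp14 rose by 0.81 ± 0.12, adjusted p = 0.000335, when Zmpste24-/- lungs were ventilated. Both comparisons use the same Zmpste24-/- baseline arrays. After ventilation the genotypes overlapped (-0.06 ± 0.12), and the wild type change was 0.15 ± 0.12, adjusted p = 0.525. The difference between the ventilation changes did not pass (0.66 ± 0.16, adjusted p = 0.109). Mmp16, Mmp17 and Mmp24 passed no test, with changes between -0.15 and 0.10 after ventilation, and Mmp15 is not analysed here.

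Mmp19, a secreted MMP of basement membrane turnover found in vessels and macrophages, rose in both genotypes and more in Zmpste24-/- lungs. Mmp19 read 7.29, 7.43 and 7.22 in intact and 8.09, 7.79 and 7.87 in ventilated wild type mice, and 7.42, 7.39 and 7.0 in intact and 8.99, 9.09 and 8.67 in ventilated Zmpste24-/- mice. The baseline groups overlapped, every ventilated array lay above them, and the Zmpste24-/- ventilated arrays lay above the wild type ventilated ones. The increase was 0.60 ± 0.13, adjusted p = 0.0149, in wild type and 1.65 ± 0.13, adjusted p = 4.73e-06, in Zmpste24-/- lungs, that is 1.52-fold and 3.13-fold. Under ventilation Mmp19 was higher in Zmpste24-/- lungs by 1.0 ± 0.13, adjusted p = 0.000573. The difference between the 2 changes was 1.04 ± 0.19, adjusted p = 0.0422. That call lay close to the threshold and was lost when wild type baseline array 2 or 3 was left out (adjusted p = 0.112 and 0.0588), when wild type ventilated array 2 or 3 was left out (adjusted p = 0.0926 and 0.0967), when Zmpste24-/- baseline array 1, 2 or 3 was left out (adjusted p = 0.0605, 0.0574 and 0.0887) and when Zmpste24-/- ventilated array 1 or 2 was left out (adjusted p = 0.0678 and 0.0869). The difference kept its sign and lay between 0.91 and 1.17 in these and the other alternative fits. In wild type mice the increase failed to pass when wild type baseline array 3 was left out (adjusted p = 0.0542) and when wild type ventilated array 1 was left out (adjusted p = 0.058). The other MMPs of no larger class, Mmp21, Mmp23 and Mmp28, passed no test. Epilysin, Mmp28, had the lowest wild type change of the 28 genes that passed none (-0.30 ± 0.13, adjusted p = 0.199).

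Of the inhibitors, Timp1 was the one that responded to ventilation. Timp1, the injury-induced TIMP, blocks most secreted MMPs. Timp1 read 5.39, 5.25 and 5.62 in intact and 5.90, 5.94 and 5.99 in ventilated wild type mice, and 5.28, 5.23 and 4.72 in intact and 5.90, 6.01 and 6.22 in ventilated Zmpste24-/- mice. The 6 ventilated arrays lay between 5.90 and 6.22, above all 6 baseline arrays, and the genotypes overlapped under both conditions. Timp1 rose by 0.52 ± 0.14, adjusted p = 0.0396, in wild type and by 0.97 ± 0.14, adjusted p = 0.0004, in Zmpste24-/- lungs. The wild type call was lost when wild type baseline array 1 or 2 was left out (adjusted p = 0.0956 and 0.14), when wild type ventilated array 1, 2 or 3 was left out (adjusted p = 0.0735, 0.0859 and 0.13) and when Zmpste24-/- ventilated array 2 was left out (adjusted p = 0.0558). The larger change in Zmpste24-/- lungs did not differ from that in wild type lungs past the threshold (0.44 ± 0.20, adjusted p = 0.406).

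Timp3, the matrix-bound TIMP that also inhibits ADAM17 and aggrecanases, differed by genotype. Timp3 read 11.35, 11.19 and 11.29 in intact and 11.55, 11.37 and 11.32 in ventilated wild type mice, and 11.64, 11.63 and 11.51 in intact and 11.61, 11.77 and 11.73 in ventilated Zmpste24-/- mice. All Zmpste24-/- arrays lay above the wild type arrays of the same condition. The difference was 0.32 ± 0.09, adjusted p = 0.044, at baseline and 0.29 ± 0.09, adjusted p = 0.0513, under ventilation, just past and just short of the threshold. The baseline call was lost with the 2 compared groups fitted alone (adjusted p = 0.0839), when wild type baseline array 1, 2 or 3 was left out (adjusted p = 0.0596, 0.14 and 0.0774), when wild type ventilated array 2 was left out (adjusted p = 0.055), when Zmpste24-/- baseline array 1, 2 or 3 was left out (adjusted p = 0.119, 0.115 and 0.0699) and when Zmpste24-/- ventilated array 2 or 3 was left out (adjusted p = 0.0584 and 0.0596), and the difference under ventilation passed with array medians subtracted (adjusted p = 0.02), with genes under the 25th percentile left out (adjusted p = 0.0477), with an intensity trend in the prior variance (adjusted p = 0.0279) and when wild type ventilated array 1 was left out (adjusted p = 0.0249). Timp2, the constitutive TIMP that takes part in MMP2 activation, read 10.86, 10.96 and 11.01 in intact and 10.72, 10.87 and 10.53 in ventilated wild type mice, and 10.82, 10.85 and 10.77 in intact and 10.74, 10.71 and 10.60 in ventilated Zmpste24-/- mice. It passed no test and all its arrays lay between 10.53 and 11.01. Timp4, best known from heart and fat, read 5.49, 5.23 and 5.06 in intact and 5.40, 5.39 and 5.13 in ventilated wild type mice, and 5.15, 5.10 and 5.19 in intact and 5.03, 5.15 and 4.81 in ventilated Zmpste24-/- mice. Its groups overlapped in all comparisons, and it passed no test.

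The ADAMTS proteoglycanases, which cut versican and aggrecan, held the widest responses among the ADAMTS genes. Adamts4, or aggrecanase-1, rose most. Adamts4 read 5.06, 5.23 and 5.16 in intact and 6.16, 5.70 and 6.14 in ventilated wild type mice, and 5.25, 4.87 and 5.12 in intact and 6.63, 6.85 and 7.33 in ventilated Zmpste24-/- mice. All ventilated arrays lay above all baseline arrays, and the Zmpste24-/- ventilated arrays above the wild type ventilated ones. The increase was 0.85 ± 0.17, adjusted p = 0.00784, in wild type and 1.86 ± 0.17, adjusted p = 1.05e-05, in Zmpste24-/- lungs, and under ventilation the genotypes differed by 0.94 ± 0.17, adjusted p = 0.0033. The difference between the ventilation changes did not pass (1.01 ± 0.24, adjusted p = 0.0959). The 3 calls of Adamts4 held in all 18 alternative fits.

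Adamts5, or aggrecanase-2, went the other way. Adamts5 read 7.0, 7.12 and 7.20 in intact and 6.32, 6.62 and 6.13 in ventilated wild type mice, and 7.26, 7.20 and 7.15 in intact and 6.87, 6.69 and 6.72 in ventilated Zmpste24-/- mice. Ventilated arrays lay below all baseline arrays, and the wild type ventilated group was the lowest. Adamts5 fell by 0.75 ± 0.11 in wild type (adjusted p = 0.0013) and by 0.44 ± 0.11 in Zmpste24-/- lungs (adjusted p = 0.0143). The latter call was lost when Zmpste24-/- ventilated array 2 or 3 was left out (adjusted p = 0.0591 and 0.0561). Under ventilation Adamts5 was higher in Zmpste24-/- lungs (0.40 ± 0.11, adjusted p = 0.0335), a call lost with the 2 compared groups fitted alone (adjusted p = 0.0726), when wild type ventilated array 1 or 3 was left out (adjusted p = 0.0748 and 0.14) and when Zmpste24-/- ventilated array 1, 2 or 3 was left out (adjusted p = 0.122, 0.061 and 0.074).

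Adamts1 and Adamts9, which also cut versican, were low in intact Zmpste24-/- lungs and rose when these were ventilated. Adamts1 read 8.93, 9.08 and 9.0 in intact and 9.03, 9.28 and 9.29 in ventilated wild type mice, and 8.65, 8.05 and 8.46 in intact and 9.13, 9.24 and 9.26 in ventilated Zmpste24-/- mice. The Zmpste24-/- baseline arrays of Adamts1 lay below the other 9 arrays. Adamts1 differed by -0.62 ± 0.13, adjusted p = 0.0133, between genotypes at baseline and by 0.01 ± 0.13 under ventilation, and it rose by 0.83 ± 0.13, adjusted p = 0.000709, in Zmpste24-/- lungs against 0.19 ± 0.13, adjusted p = 0.45, in wild type lungs. Adamts9 read 8.26, 8.40 and 8.19 in intact and 8.42, 8.72 and 8.94 in ventilated wild type mice, and 7.99, 7.52 and 7.41 in intact and 8.41, 8.46 and 8.86 in ventilated Zmpste24-/- mice. For Adamts9, too, the 3 Zmpste24-/- baseline arrays were the lowest. Adamts9 differed by -0.64 ± 0.17, adjusted p = 0.0352, at baseline, a call lost when wild type baseline array 1, 2 or 3 was left out (adjusted p = 0.0799, 0.112 and 0.0534) and when Zmpste24-/- baseline array 2 or 3 was left out (adjusted p = 0.107 and 0.147). It rose by 0.94 ± 0.17, adjusted p = 0.00161, in Zmpste24-/- lungs, and its wild type change of 0.41 ± 0.17, adjusted p = 0.17, did not pass although the arrays did not overlap. The differences between the ventilation changes did not pass for Adamts1 (0.63 ± 0.18, adjusted p = 0.174) or Adamts9 (0.52 ± 0.23, adjusted p = 0.403). As with Mmp14, the baseline and the ventilation comparison use the same Zmpste24-/- baseline arrays. Adamts1 and Adamts5 are neighbours on chromosome 16, with no protein-coding gene between them, and changed in opposite directions in ventilated Zmpste24-/- lungs.

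The other proteoglycanases gave no call on the probe used. Adamts15 and Adamts20 changed by between -0.14 and 0.00 after ventilation. Adamts8, an anti-angiogenic member known for expression in lung, changed by 0.00 ± 0.13, adjusted p = 0.996, in wild type and -0.21 ± 0.13, adjusted p = 0.331, in Zmpste24-/- lungs. A second Adamts8 probe with lower values, however, fell in both genotypes, by 0.56 ± 0.10 (adjusted p = 0.00501) and 0.41 ± 0.10 (adjusted p = 0.0143) in a fit of all probes with 1 symbol. On that probe Adamts8 read 5.88, 6.03 and 6.16 in intact and 5.51, 5.54 and 5.34 in ventilated wild type mice, and 6.12, 6.20 and 5.90 in intact and 5.72, 5.59 and 5.69 in ventilated Zmpste24-/- mice. The 2 probes of Adamts8 therefore disagree.

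**Figure D4:**
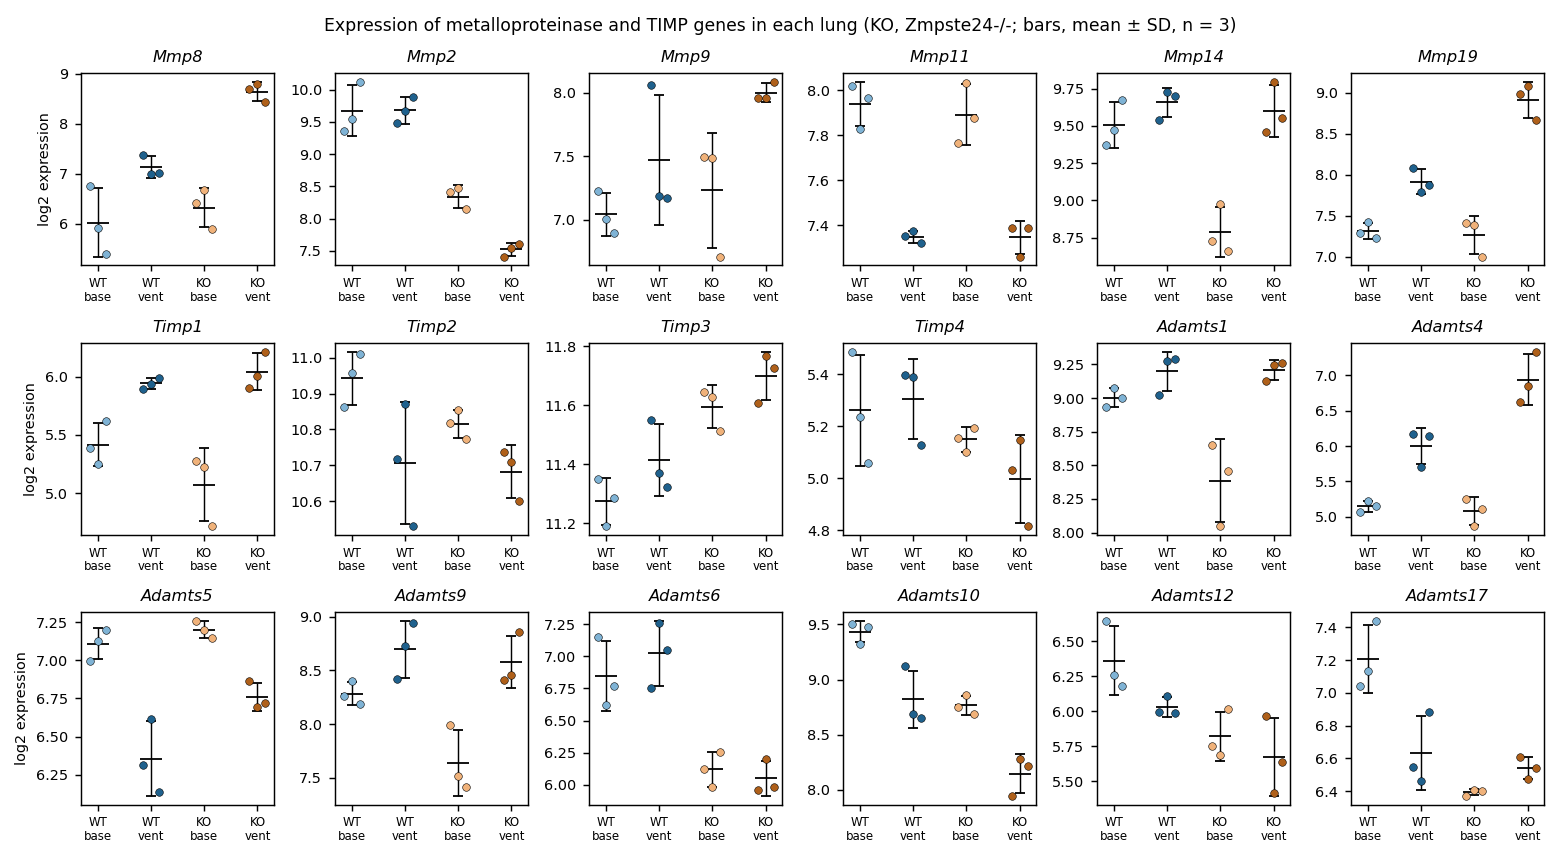
Each panel gives the log2 expression of 1 gene in the 3 arrays of each group (points), with mean ± SD (bars) on its own axis range. Mmp14, Adamts1 and Adamts9 are lowest in Zmpste24-/- baseline lungs (means 8.79, 8.38 and 7.64), Mmp8, Mmp19 and Adamts4 are highest in Zmpste24-/- ventilated lungs (means 8.64, 8.91 and 6.94), and Mmp2 falls from wild type to Zmpste24-/- lungs.

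Several ADAMTS genes of the fibrillin-associated and less studied group were lower in Zmpste24-/- lungs. Adamts10, which binds fibrillin microfibrils, declined with both factors. Adamts10 read 9.50, 9.32 and 9.48 in intact and 9.12, 8.69 and 8.65 in ventilated wild type mice, and 8.75, 8.86 and 8.69 in intact and 7.95, 8.28 and 8.21 in ventilated Zmpste24-/- mice. Wild type baseline arrays were the highest, Zmpste24-/- ventilated arrays the lowest, and the groups between them overlapped. Adamts10 fell after ventilation by 0.61 ± 0.13 in wild type (adjusted p = 0.00958) and by 0.62 ± 0.13 in Zmpste24-/- lungs (adjusted p = 0.00376). Its genotype difference was -0.67 ± 0.13, adjusted p = 0.0073, at baseline and -0.67 ± 0.13, adjusted p = 0.00407, under ventilation. In wild type mice the fall failed to pass when wild type ventilated array 3 was left out (adjusted p = 0.0531). The interaction was -0.01 ± 0.18.

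Adamts6, a close relative of Adamts10, depended on genotype. Adamts6 read 7.15, 6.62 and 6.77 in intact and 6.76, 7.26 and 7.05 in ventilated wild type mice, and 6.12, 5.98 and 6.25 in intact and 5.96, 6.20 and 5.98 in ventilated Zmpste24-/- mice. All 6 Zmpste24-/- arrays, between 5.96 and 6.25, lay below all 6 wild type arrays. The genotype difference was -0.73 ± 0.15, adjusted p = 0.0106, at baseline and -0.97 ± 0.15, adjusted p = 0.00117, under ventilation, and ventilation changed it by 0.18 ± 0.15 and -0.07 ± 0.15 without passing. Both genotype calls held in all 18 alternative fits.

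Adamts17, linked to fibrillin and to short stature with eye defects, was highest in intact wild type lungs. Adamts17 read 7.04, 7.13 and 7.44 in intact and 6.55, 6.46 and 6.89 in ventilated wild type mice, and 6.37, 6.41 and 6.40 in intact and 6.61, 6.47 and 6.54 in ventilated Zmpste24-/- mice. The wild type baseline arrays lay above the other 9. Adamts17 was lower in Zmpste24-/- lungs at baseline (-0.81 ± 0.12, adjusted p = 0.00198) and fell in wild type lungs after ventilation (-0.57 ± 0.12, adjusted p = 0.0102), and both comparisons use the same wild type baseline arrays. The wild type fall was lost with the 2 compared groups fitted alone (adjusted p = 0.0581). Its change in Zmpste24-/- lungs was 0.15 ± 0.12, adjusted p = 0.499, and the difference between the changes did not pass (0.72 ± 0.17, adjusted p = 0.0903). Adamts16, Adamts18 and Adamts19 passed no test, with values between 4.28 and 5.21.

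Of the remaining ADAMTS genes, Adamts12, which cuts cartilage oligomeric matrix protein, was lower in Zmpste24-/- lungs at baseline. Adamts12 read 6.65, 6.26 and 6.18 in intact and 5.99, 6.11 and 5.99 in ventilated wild type mice, and 5.76, 5.69 and 6.02 in intact and 5.97, 5.42 and 5.64 in ventilated Zmpste24-/- mice. The baseline groups did not overlap, but the adjusted p of 0.0433 for a difference of -0.54 ± 0.15 was close to the threshold. It was lost with array medians subtracted (adjusted p = 0.0518), with the 2 compared groups fitted alone (adjusted p = 0.0666), when wild type baseline array 1 or 2 was left out (adjusted p = 0.15 and 0.0704), when wild type ventilated array 1, 2 or 3 was left out (adjusted p = 0.0505, 0.0543 and 0.0582), when Zmpste24-/- baseline array 1, 2 or 3 was left out (adjusted p = 0.114, 0.13 and 0.0519) and when Zmpste24-/- ventilated array 3 was left out (adjusted p = 0.0589). Adamts7, which cuts the same substrate, passed no test. Adamts13, the protease that trims von Willebrand factor and is made mainly in liver, lay between 4.57 and 5.10. The procollagen N-proteinases Adamts3 and Adamts14, which remove the amino-terminal propeptide of procollagen, passed no test, and Adamts2 is not analysed here.

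**Figure D5:**
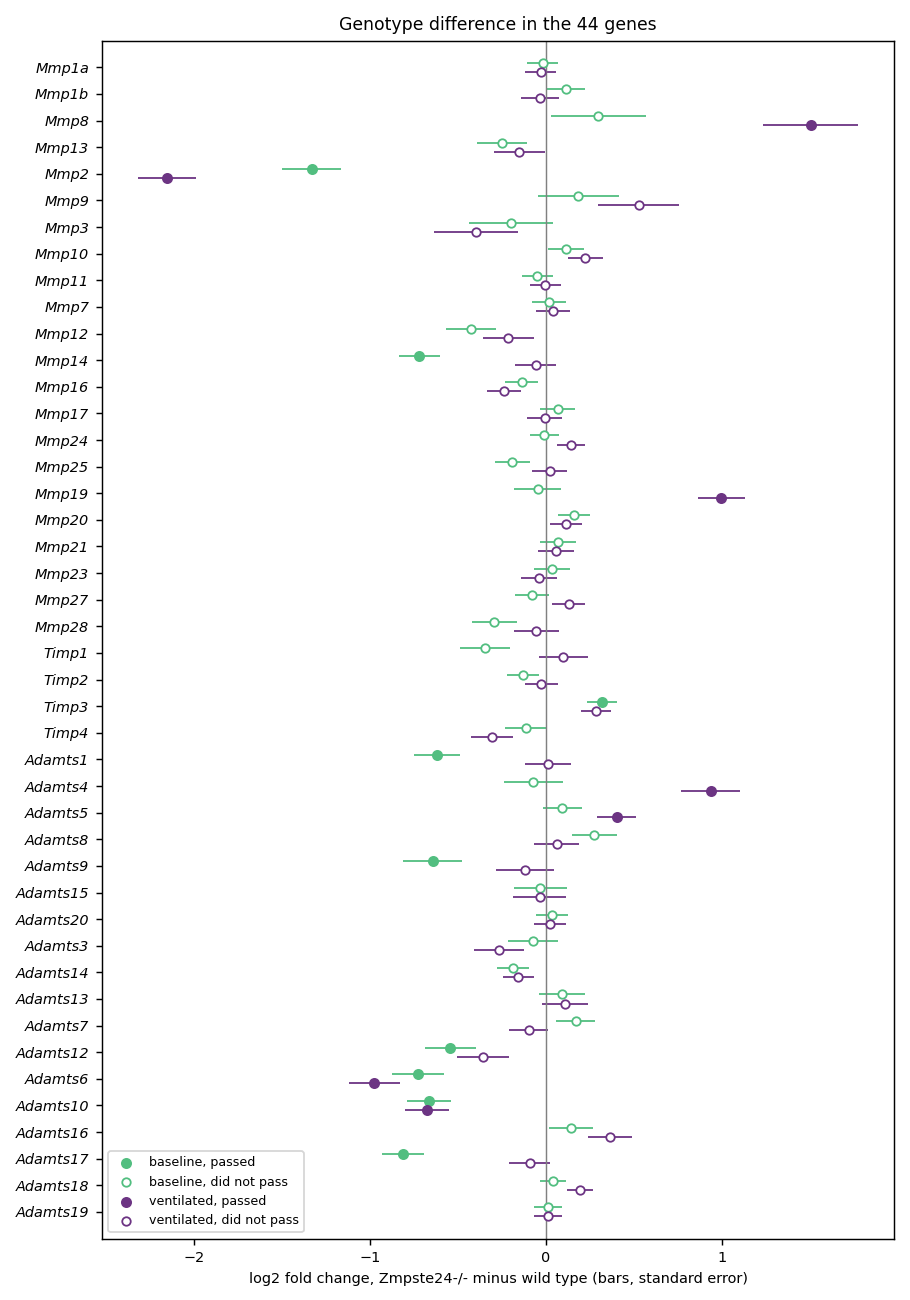
The 44 genes are listed by role, with the log2 difference Zmpste24-/- minus wild type on the x axis at baseline (green) and under ventilation (purple), bars showing the standard error and filled points the differences that passed. Mmp2 lies farthest to the left at -1.33 and -2.15, and Mmp8, Mmp19 and Adamts4 are higher under ventilation, at 1.51, 1.0 and 0.94.

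Genes that activate, inhibit or are cut by these proteases were counted from lists of 48 genes, of which 46 were measured. After ventilation of wild type lungs 4 rose (8.70%, against 3.67% of all genes) and 1 fell (2.17%, against 3.53%). In Zmpste24-/- lungs 9 rose (19.6%, against 8.89%) and 8 fell (17.4%, against 7.52%). By genotype at baseline 1 was higher (2.17%, against 2.20%) and 4 were lower (8.70%, against 4.11%). Under ventilation 2 were higher and 3 lower in Zmpste24-/- lungs, shares of 4.35% and 6.52% that lay near the 4.72% and 6.08% of all genes. In the plasminogen system, which activates several MMPs, Plaur (the urokinase receptor) rose by 1.34 ± 0.19, adjusted p = 0.000947, in wild type and 1.98 ± 0.19, adjusted p = 1.46e-05, in Zmpste24-/- lungs, and Plat (tissue plasminogen activator) by 0.55 ± 0.13, adjusted p = 0.0121, in the latter. Under ventilation Plaur was higher in Zmpste24-/- lungs (0.75 ± 0.19, adjusted p = 0.0219), and Plau (urokinase) was lower there at baseline (-0.64 ± 0.10, adjusted p = 0.00269). No other gene of the 5 measured in this list passed these tests.

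Other regulators of MMPs included Thbs1 (thrombospondin-1), which rose by 1.70 ± 0.19, adjusted p = 0.000219, in wild type and 2.71 ± 0.19, adjusted p = 1.75e-06, in Zmpste24-/- lungs. Reck, the membrane-anchored inhibitor of MMPs, fell by 0.32 ± 0.08 in wild type lungs (adjusted p = 0.0326) and also fell in Zmpste24-/- lungs. Lrp1, the endocytic receptor that clears MMPs and TIMPs, changed by -0.31 ± 0.09, adjusted p = 0.024, and Cd44, which docks MMPs at the cell surface, by 0.47 ± 0.11, adjusted p = 0.00881, in Zmpste24-/- lungs. In this list of 9 genes, 1 rose and 1 fell in wild type and 2 rose and 2 fell in Zmpste24-/- lungs. Sdc1 was higher (0.33 ± 0.08, adjusted p = 0.0209) and Tfpi2, a serine protease inhibitor, lower (-0.44 ± 0.10, adjusted p = 0.015) in Zmpste24-/- lungs at baseline.

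Of 9 ADAM sheddases, the membrane proteases related to ADAMTS, Adam9 rose in wild type lungs (0.29 ± 0.08, adjusted p = 0.0431). In Zmpste24-/- lungs Adam17 (0.70 ± 0.10, adjusted p = 0.000369), the TNF convertase, and Adam9 rose, and Adam28 (-0.76 ± 0.17, adjusted p = 0.0071), Adam15 and Adam19 fell. Adam17 and Adam19 were lower in Zmpste24-/- lungs at baseline (-0.55 ± 0.10, adjusted p = 0.00641, and -0.51 ± 0.13, adjusted p = 0.0311), and Adam15 and Adam19 under ventilation. None of 4 proprotein convertases, which include furin, passed any limma test. For ventilation of Zmpste24-/- lungs, 2 had an unadjusted p under 0.05, as had 6067 of all 22180 genes. Among 6 ADAMTS-like genes with papilin, none passed in wild type lungs. There 2 had an unadjusted p under 0.05, as had 4530 of all 22180 genes. In Zmpste24-/- lungs Adamtsl4 (0.60 ± 0.12, adjusted p = 0.00292) rose and Adamtsl1, Adamtsl2 and Adamtsl5 fell. Under ventilation Adamtsl5 was lower in Zmpste24-/- lungs (-0.47 ± 0.11, adjusted p = 0.0141). All 6 genes of this list had an unadjusted p under 0.05 in that comparison, as had 5495 of all 22180 genes. Of the 6 substrates of ADAMTS proteases, Acan (aggrecan) was higher in Zmpste24-/- lungs under ventilation (0.33 ± 0.10, adjusted p = 0.0422) and no other passed, Vcan (versican) included. Of 7 elastases and cathepsins, the collagenolytic cathepsin gene Ctsk rose in both genotypes (0.76 ± 0.13, adjusted p = 0.00329, and 0.67 ± 0.13, adjusted p = 0.00314), and Ctsb in Zmpste24-/- lungs.

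Markers of other lung cells moved too. Beside the counts below, 3.53% of all genes fell after ventilation in wild type and 7.52% in Zmpste24-/- lungs. By genotype, 4.11% of all genes were lower in Zmpste24-/- lungs at baseline, and 6.08% were lower and 4.72% higher under ventilation. Of 8 endothelial markers, 7 fell in wild type and 6 in Zmpste24-/- lungs after ventilation, and 4 were lower in Zmpste24-/- lungs at baseline. Under ventilation 3 (Cdh5, Kdr and Tie1) were lower and 1 (Gpihbp1) was higher in Zmpste24-/- lungs. Their summed level on the log2 scale was 13.91 to 13.97 in intact and 13.44 to 13.56 in ventilated wild type mice, and 13.51 to 13.65 in intact and 13.15 to 13.41 in ventilated Zmpste24-/- mice. Wild type baseline lungs were the highest group, as they were for Adamts10 and Adamts17. Of 5 smooth muscle markers, 2 were lower in Zmpste24-/- lungs under ventilation. The ventilated genotypes did not overlap for any of the 5 (100.0%, against 30.3% of all genes), with differences between -1.48 and -0.50. Of 10 genes listed as macrophage markers, 1 (Car4) fell after ventilation in each genotype. Whether Car4 reports macrophages in whole lung was not tested. In Zmpste24-/- lungs 2 of the 10 were lower at baseline, and 1 was higher and 1 lower under ventilation. At baseline the genotypes did not overlap in 5 of the 10 (50.0%, against 23.9% of all genes). The median baseline difference was -0.31, with a range of -0.67 to 0.45. The summed level lay between 13.17 and 13.60 in all arrays, but Lyz2, at 12.37 to 12.86, weighs most in it. No alveolar type 2, airway or mesothelial marker passed any test. Of 6 alveolar type 1 markers, 1 fell after ventilation in each genotype and 2 were higher in Zmpste24-/- lungs under ventilation. Of 8 cartilage markers 1, Chad, passed, lower in ventilated Zmpste24-/- lungs. Of 7 liver markers, 2 fell after ventilation in wild type lungs and 4 were lower in Zmpste24-/- lungs at baseline, both comparisons that hold wild type baseline array 2. The genotypes did not overlap at baseline in 6 of the 7 (85.7%, against 23.9% of all genes). Under ventilation no liver marker passed by genotype, and the genotypes did not overlap in 2 of the 7 (28.6%, against 30.3%). The part of these markers in the changes of the proteases was not tested.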

How the data were processed

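RNA of whole lung was labelled with a kit for whole-transcript arrays, per the labels' protocols, and the authors deposited log2 expression values, 1 column per mouse. Per the submitters' processing notes, the tools were RMA and limma, without versions. No genome build is stated there. That the scale is log2 follows from the range of the values, and nothing was normalized again. Of 41345 probes, 23521 had 1 gene symbol, 1814 several and 16010 none in the platform annotation. Among the probes of a gene with 1 symbol, the one with the highest mean was kept, and a probe paired with Mmp24 and another symbol was left out. Sample titles call the mice biological replicates. All 44 symbols matched a RefSeq gene table (GRCm38.p6) by identifier, and 4 of these genes had more than 1 probe.

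A linear model with a mean for each of the 4 groups was fitted in R 4.3.3 (limma 3.58.1, lmFit and eBayes), which was tested on simulated data, and 5 contrasts were adjusted by Benjamini-Hochberg over 22180 genes. With 3 arrays against 3, an exact permutation test cannot give a p below 0.1, so the calls rest on limma's shared variance. No label or header names a batch. Alternatives were the mean of probes, subtraction of array medians, a filter at the 25th percentile, fits of 2 groups alone, an intensity trend, a replicate block and leaving out each array. Genes with values in every array were those that passed any contrast, all Timp genes, Mmp2 and Mmp9. Further genes shown (Mmp3, the markers Sftpc, Alb, Pdgfra, Dcn, S100a8, S100a9, Camp, Ngp, Mpo, Ly6g, Ltf and Col1a1), and the printed promoters, were chosen after their values were seen. Of each pathway list, values are given for up to 3 genes per contrast with the smallest adjusted p among those that passed. The members and lists were chosen with earlier results of these data known. Figures were drawn with matplotlib 3.10.9.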

Additional observations from a re-analysis of the deposited data

Results flagged for a closer look

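Mmp19 differed between the genotypes in its response to ventilation: the change in Zmpste24-/- lungs exceeded that in wild type lungs by 1.04 ± 0.19, adjusted p = 0.0422 (limma interaction). It rose in 3 of 3 ventilated arrays of each genotype above all baseline arrays. The adjusted p was between 0.0574 and 0.112 when any of 9 of the 12 arrays was left out. Groups of 3 arrays were too small for a check on single deviating arrays.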

How the results depend on the processing

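Of 1602 refits of the 18 genes with values in every array, 1532 kept their side of the threshold, 65 lost a call, 5 gained one and 0 changed the sign of a called value. These refits cover all 5 tests of each gene, and most are of tests that had not passed and so could not lose a call. The calls lost most often were those of Adamts12 (11 of 18 refits) and Timp3 (11 of 18) at baseline and the interaction of Mmp19 (9 of 17). With single arrays left out, the count of genes that passed lay between 5 and 9 (8 with all arrays) for ventilation in wild type lungs, lowest without wild type ventilated array 3. It lay between 10 and 12 (12) for ventilation in Zmpste24-/- lungs, between 6 and 9 (9) for genotype at baseline, lowest without wild type baseline array 1 or 2 or Zmpste24-/- baseline array 2 or 3, between 6 and 8 (7) for genotype under ventilation, and between 0 and 1 (1) for the interaction. The other alternatives kept each count within 1.5 times. The replicate numbers were not used to pair the mice in the main fit. Deviations of same-numbered arrays correlated by -0.15 to 0.15 (median 0.04), and those of different-numbered arrays by -0.25 to 0.23 (median 0.00). With 3 arrays per group, these correlations cannot show whether mice were matched by number. With the replicate block 7, 12, 7, 7 and 1 genes passed, and Timp1 in wild type lungs (adjusted p = 0.0641), Adamts9 (0.0531) and Timp3 (0.0617) at baseline lost their calls. With the mean of probes 13 genes passed in ventilated Zmpste24-/- lungs. Precision is limited by 3 arrays per group and by the lack of a background level.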
